A study of Mus musculus with 6 samples.

Results

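The genes described here are those of the T helper 2 cytokine cluster and its neighbours on mouse chromosome 11: the cytokine genes Il3, Csf2, Il4, Il5 and Il13, with Rad50, which lies among them, and Kif3a, which lies beside Il4. They were chosen by name, through the symbols of the array annotation, with earlier results of these data known. All 7 genes were measured, by 8 probe sets (Csf2 has 2), among 22180 genes on the array. Expression was measured on 6 Affymetrix Mouse Gene 2.0 ST arrays, 3 for icilin and 3 for vehicle. The tested cells were CD4+ T cells purified from the spleens of wild-type female C57BL/6 mice about 8 weeks old, kept for 24 h with 100 µM icilin dissolved in DMSO, and their controls were kept for the same time with DMSO alone. All of the cells, controls included, had first been stimulated for 24 h with antibodies to CD3 and CD28 at 10 µg/mL each, so that every value is from activated cells. Both groups came from the same 3 mice. Icilin is a synthetic agonist of the cold-sensing ion channel TRPM8 and also activates TRPA1. That the 3 cultures of a group came from separate mice follows from the study design, and p-values measure the spread between those cultures. The tests were unpaired, as the labels do not say which arrays share a mouse.

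Interleukin 3 and GM-CSF, the product of Csf2, drive the growth and survival of myeloid cells, basophils and mast cells. Interleukins 4, 5 and 13 are the classical T helper 2 cytokines: interleukin 4 directs T helper 2 differentiation and antibody class switching, interleukin 5 sustains eosinophils, and interleukin 13 acts on epithelium and macrophages. Activated T cells turn these genes on through calcium, calcineurin and the transcription factor NFAT, which works with AP-1, while GATA3 opens the Il4, Il5 and Il13 end of the cluster. Rad50 encodes a DNA repair protein expressed in nearly all cells, and in mice its gene also carries a locus control region for the T helper 2 cytokines. Kif3a encodes a subunit of a kinesin motor.

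The upstream sequences of the 5 cytokine genes are shown because T cell activation turns all 5 genes on, while 3 of them passed the test for a decrease with icilin. Each line gives the 250 bases before the transcription start, 5′ to 3′, from RefSeq on build GRCm38.p6. Capitals mark the letters GGAAA, the core of NFAT sites, or their reverse complement TTTCC.
Il3, chr11:54267280-54267529, minus strand: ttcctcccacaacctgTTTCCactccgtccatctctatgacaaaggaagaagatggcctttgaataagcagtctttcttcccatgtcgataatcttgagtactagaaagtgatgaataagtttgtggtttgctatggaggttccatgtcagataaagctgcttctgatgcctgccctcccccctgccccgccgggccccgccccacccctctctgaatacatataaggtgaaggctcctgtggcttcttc
Csf2, chr11:54249900-54250149, minus strand: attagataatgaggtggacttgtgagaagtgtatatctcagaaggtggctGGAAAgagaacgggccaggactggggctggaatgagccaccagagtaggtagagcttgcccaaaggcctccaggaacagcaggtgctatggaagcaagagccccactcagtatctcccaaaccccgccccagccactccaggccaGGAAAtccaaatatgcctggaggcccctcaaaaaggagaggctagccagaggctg
Il5, chr11:53720544-53720793, plus strand: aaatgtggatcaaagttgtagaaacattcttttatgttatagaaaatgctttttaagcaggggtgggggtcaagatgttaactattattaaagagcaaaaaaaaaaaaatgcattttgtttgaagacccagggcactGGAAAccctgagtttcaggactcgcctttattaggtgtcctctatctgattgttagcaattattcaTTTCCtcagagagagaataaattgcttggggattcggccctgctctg
Il13, chr11:53634703-53634952, minus strand: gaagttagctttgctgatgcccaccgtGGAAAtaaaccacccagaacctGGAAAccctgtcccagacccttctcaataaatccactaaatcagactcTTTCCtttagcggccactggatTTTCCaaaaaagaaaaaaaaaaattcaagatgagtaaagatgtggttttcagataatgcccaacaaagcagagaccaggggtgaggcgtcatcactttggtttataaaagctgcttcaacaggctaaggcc
Il4, chr11:53618666-53618915, minus strand: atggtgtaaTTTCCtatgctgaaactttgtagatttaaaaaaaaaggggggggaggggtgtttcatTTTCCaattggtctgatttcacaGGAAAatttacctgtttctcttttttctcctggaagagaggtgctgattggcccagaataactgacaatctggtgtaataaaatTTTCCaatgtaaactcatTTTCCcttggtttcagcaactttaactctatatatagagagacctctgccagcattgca

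The 250 bases held 1 such match in Il3, 2 in Csf2, 2 in Il5, 4 in Il13 and 5 in Il4. Of 27025 mouse promoters, 55.6% held at least 1 match in the same window, 21.7% held at least 2, 1.61% at least 4 and 0.374% at least 5. A second, downstream start site of Il4 in the RefSeq table held no match. The GATA letters AGATAA, found in 10.3% of promoters, were in the windows of Il3, Csf2 and Il13. The AP-1 letters TGANTCA, found in 6.87% of promoters, were in none of the windows printed. These matches describe letters and are not evidence of binding.

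Icilin-treated cells had lower values for 3 of the 5 cytokine genes, with the largest estimates for Il3 and the brighter Csf2 probe set. The dimmer Csf2 probe set stood at 0.07 log2 units, and its level was not shown to be above background in either group. For Il3 a level above background was not shown with icilin. Whether Csf2 fell more than Il5 was not settled: with both probe sets averaged, Csf2 stood at -0.48, against -0.59 for Il5. On the scale of the RMA values Il3 was 2.86-fold lower, Csf2 2.04-fold lower and Il5 1.51-fold lower with icilin than with vehicle. The call of Il5 was lost under 9 of 16 alternative settings. Il13 was 1.22-fold lower and did not pass the test, and Il4 differed little. Rad50 and Kif3a did not pass either. A gene passed when the limma adjusted p (Benjamini-Hochberg, over all 22180 genes) was under 0.1 and the change at least 1.5-fold, the limits that the study set. By this rule 3 of the 7 genes fell and none rose. Over the whole array 1.4% of genes passed, with 1.03% lower and 0.37% higher. In RNA from a whole culture, fewer cells making a cytokine and less of its mRNA per cell cannot be told apart.

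**Figure D1:**
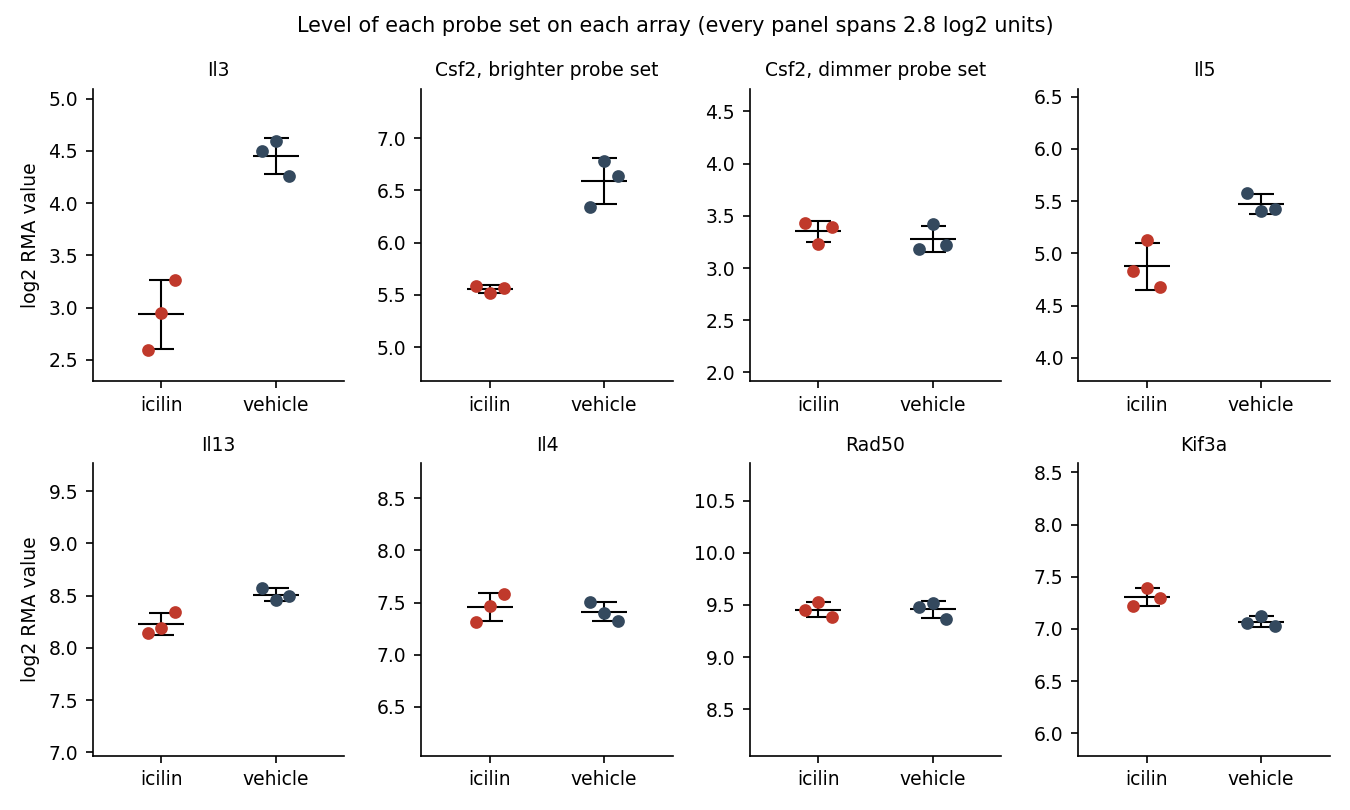
Log2 RMA value (vertical axis) of each of the 8 probe sets on the 3 icilin arrays (red, left) and the 3 vehicle arrays (dark, right) of each panel; points are arrays, bars the mean ± SD. The groups are apart by 1.00 log2 units for Il3 and 0.76 for the brighter Csf2 probe set, and overlap for Il4, Rad50 and the dimmer Csf2 probe set.

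Il3 had the largest change of the cluster. Its log2 RMA values were 2.60, 2.94 and 3.26 with icilin, against 4.50, 4.60 and 4.26 with vehicle. The highest icilin array lay 1.00 log2 units below the lowest vehicle array. The means were 2.93 ± 0.33 with icilin and 4.45 ± 0.17 with vehicle (SD, n = 3 each), a log2 difference of -1.52 ± 0.17 (SE; limma adjusted p = 0.00595; 95% confidence interval of the fold decrease, 2.16 to 3.79). Il3 was dim on this array. With icilin its mean lay above those of 77.9% of the 1105 olfactory receptor genes, which T cells are not known to use, and with vehicle above those of 96.4%. The icilin mean was under the 90th percentile of those genes (3.62) and the vehicle mean above it (3.65), so a level above background was not shown with icilin. The fold and its interval are therefore those of the RMA values, and the size of the change in mRNA is not settled by them.

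Csf2 was lower on every icilin array by its brighter probe set. The values were 5.59, 5.52 and 5.56 with icilin, against 6.35, 6.78 and 6.63 with vehicle. The icilin arrays lay close together and at least 0.76 log2 units below any vehicle array. The log2 difference was -1.03 ± 0.11 (SE; limma adjusted p = 0.00515; fold decrease 1.70 to 2.46). The dimmer probe set of Csf2 gave 3.43, 3.23 and 3.39 with icilin, against 3.19, 3.42 and 3.22 with vehicle, and here the groups overlapped. In a fit over all 23521 probe sets with 1 symbol, in which 1.37% of probe sets passed (1.02% lower and 0.349% higher), its log2 difference was 0.07 ± 0.09 (limma adjusted p = 0.747). Its icilin mean lay above those of 86.7% of the olfactory receptor genes, and its vehicle mean above those of 85.4%. The means, 3.35 with icilin and 3.28 with vehicle, lay under the 90th percentile of those genes (3.62 and 3.65). For this probe set a level above background was therefore not shown in either group. With both probe sets averaged, Csf2 stood at -0.48 (limma adjusted p = 0.0497), below the fold limit.

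Il5 was also lower, close to the limits of the test. The values were 4.83, 5.12 and 4.68 with icilin, against 5.58, 5.41 and 5.42 with vehicle. All 3 icilin arrays lay below the vehicle arrays, with a gap of 0.28 log2 units between the nearest ones. The log2 difference was -0.59 ± 0.12 (SE; limma adjusted p = 0.0513; fold decrease 1.24 to 1.84). Leaving out single arrays moved it between -0.72 and -0.49, and it passed in 1 of these 6 fits, the one without icilin replicate 2. Centring the arrays on their medians or quantile normalization (-0.58 in each case) took it short of 1.5-fold.

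Il13 differed in the same direction without passing. It had values of 8.14, 8.19 and 8.34 with icilin, against 8.58, 8.46 and 8.49 with vehicle. The groups did not overlap, which was also so, in the direction of lower with icilin, for 10.5% of all genes. The log2 difference was -0.28 ± 0.08 (SE; limma adjusted p = 0.123), and its interval of a 1.07- to 1.38-fold decrease lay wholly under 1.5-fold. Il13 was among the brighter genes, at percentile 87.1 of all genes.

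Il4 did not pass. The values were 7.31, 7.47 and 7.58 with icilin, against 7.51, 7.40 and 7.32 with vehicle, so that the groups overlapped. The log2 difference was 0.04 ± 0.09 (SE; limma adjusted p = 0.858). The 95% confidence interval ran from -0.17 to 0.26, which leaves out a change of 1.5-fold in either direction.

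Rad50 and Kif3a, the genes between and beside the T helper 2 cytokines, did not pass. Rad50, which sits between Il13 and Il5, had values of 9.45, 9.53 and 9.39 with icilin, against 9.48, 9.52 and 9.37 with vehicle. The groups overlapped, and the log2 difference was 0.00 ± 0.07 (limma adjusted p = 0.994; interval -0.18 to 0.17). Kif3a, next to Il4, had values of 7.22, 7.39 and 7.30 with icilin, against 7.06, 7.13 and 7.03 with vehicle. All 3 icilin arrays lay higher, as for 13.6% of all genes, and the log2 difference of 0.23 ± 0.07 did not pass (limma adjusted p = 0.166; 1.04- to 1.32-fold increase).

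**Figure D2:**
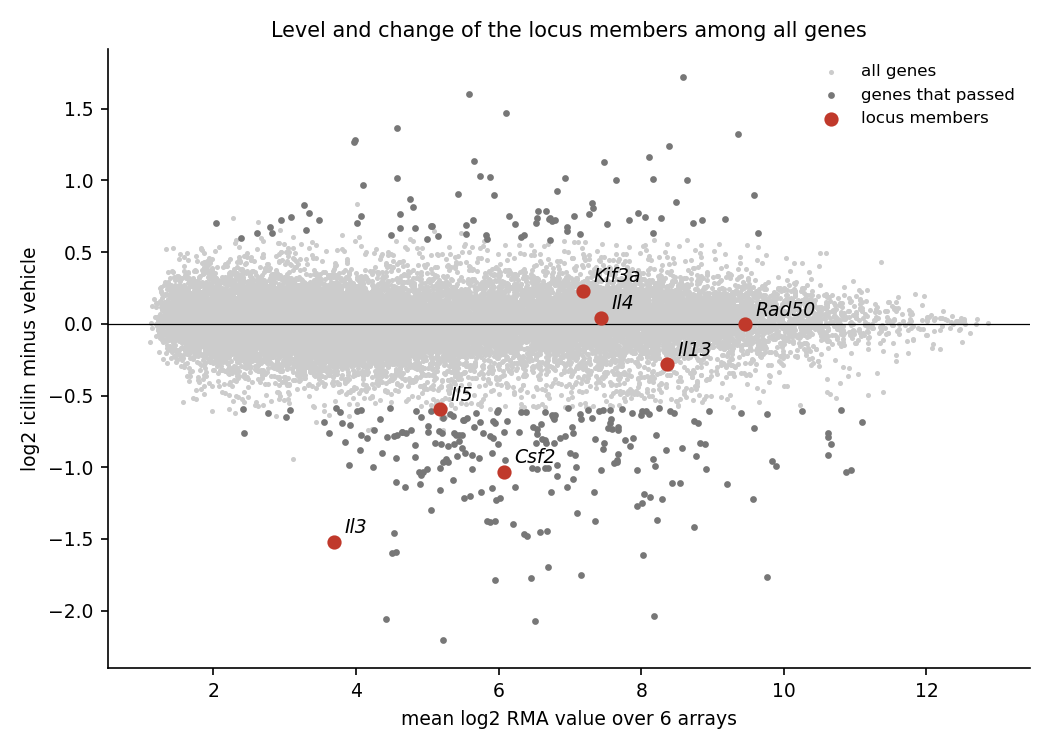
Log2 difference, icilin minus vehicle (vertical axis), against the mean log2 RMA value over 6 arrays (horizontal axis) for all 22180 genes (light grey), the 311 that passed (dark grey) and the 7 locus members (red). Il3 at -1.52, Csf2 at -1.03 and Il5 at -0.59 lie among the genes that passed, and Il13, Il4, Rad50 and Kif3a lie within the light grey band.

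The order of the changes, from the largest decrease, was Il3, Csf2, Il5, Il13, Rad50, Il4 and Kif3a. To compare changes between genes, the difference of 2 genes' log2 values was taken on each array and compared between the groups by a two-sided exact permutation test, whose smallest possible p with 3 against 3 arrays is 0.1. Of 21 pairs, 16 reached that p (0.131 after Benjamini-Hochberg adjustment over the pairs), so no pair could pass 0.05. The pairs reuse the same genes and are not independent. Most of the 16 include Il3, Csf2 or Il5, whose own values already did not overlap between the groups. Over all single genes, 24.1% did not overlap in either direction, and the share among pairs of other genes was not computed. The count of 16 is therefore a description only. Among neighbours in the order, Il3 changed by 0.49 log2 units more than Csf2 (exact p = 0.2), and Csf2 by 0.44 more than Il5 (exact p = 0.2). For these neighbours the array values of the groups overlapped. Il5 changed by 0.31 log2 units more than Il13 (exact p = 0.1), without overlap. The change of Il13 differed from that of Il4 by -0.33 (exact p = 0.1): the 2 genes were 0.77 ± 0.05 log2 units apart on icilin arrays and 1.10 ± 0.06 apart on vehicle arrays (SD, n = 3 each).

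**Figure D3:**
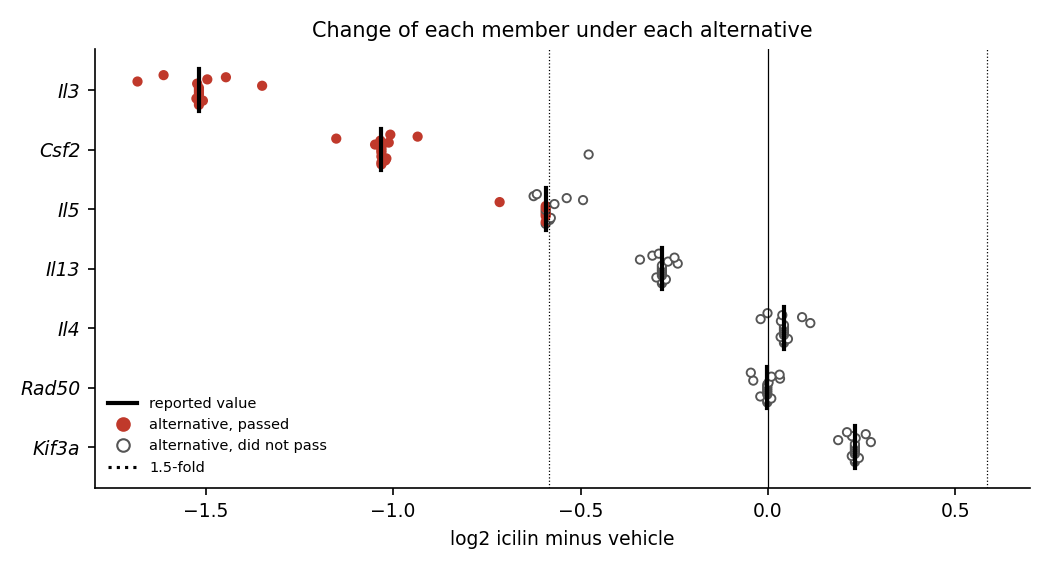
Log2 difference, icilin minus vehicle (horizontal axis), of each member (rows) in the reported fit (black bar) and under each alternative (points; filled red where the gene passed); dotted lines mark 1.5-fold. Il3 lies between -1.68 and -1.35 with every point filled, and 9 of the 16 points of Il5 are open.

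The stretch of chromosome 11 from Aff4 to Cdc42se2 was then described gene by gene, in the order given by RefSeq. It holds 29 measured genes, 25 of them protein-coding. On the whole array 1.4% of genes passed. Besides the members, 1 of the 22 other genes passed: P4ha2, which encodes a subunit of collagen prolyl hydroxylase and is the protein-coding neighbour of Csf2. Its values were 5.05, 5.27 and 5.46 with icilin, against 6.52, 6.76 and 6.63 with vehicle, a log2 difference of -1.38 ± 0.12 (limma adjusted p = 0.00227). The icilin arrays lay at least 1.06 log2 units below the vehicle arrays. Thus P4ha2, Csf2 and Il3, which follow each other among the measured protein-coding genes, all fell. The next gene, Acsl6, which encodes a fatty acyl-CoA synthetase, averaged 4.95 ± 0.06 with icilin and 5.28 ± 0.09 with vehicle (SD, n = 3 each). Its log2 difference of -0.33 ± 0.07 had an adjusted p of 0.0723 by limma but was short of 1.5-fold. A second, dim probe set of Acsl6 stood at 0.04.

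Irf1, which encodes a transcription factor of interferon responses and is the protein-coding gene after Il5, differed in the opposite direction. It averaged 9.42 ± 0.06 with icilin and 8.94 ± 0.04 with vehicle (SD, n = 3 each). The log2 difference of 0.48 ± 0.07 had an adjusted p of 0.0121 by limma and was short of 1.5-fold. Without the fold limit 5.28% of all genes had an adjusted p under 0.1 (3% lower and 2.27% higher), and so did Irf1, Acsl6 and P4ha2 among the 22. The remaining 19 genes had log2 differences from -0.21 (Slc22a21) to 0.27 (Cdc42se2). They include the carnitine and organic cation transporter genes Slc22a5 (-0.03) and Slc22a4 (-0.07) and Pdlim4 (-0.06), which lie between Irf1 and P4ha2. On the Kif3a side they include Septin8 (0.19), Shroom1 (0.12), Gdf9 (-0.02), Uqcrq (0.16), Leap2 (0.00) and Aff4 (-0.08). Sowaha stood at -0.10, with a second probe set at 0.41 (adjusted p = 0.179 in the fit over probe sets). On the Il3 side they include Meikin (-0.01), Fnip1 (-0.13) and Rapgef6 (0.03). The 4 RNA genes of unknown role ran from -0.18 (A430108G06Rik) to 0.15 (4933405E24Rik), with Gm12216 at 0.02 and Gm19835 at 0.14. The median over the 22 genes was -0.02, against 0.01 over all genes.

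**Figure D4:**
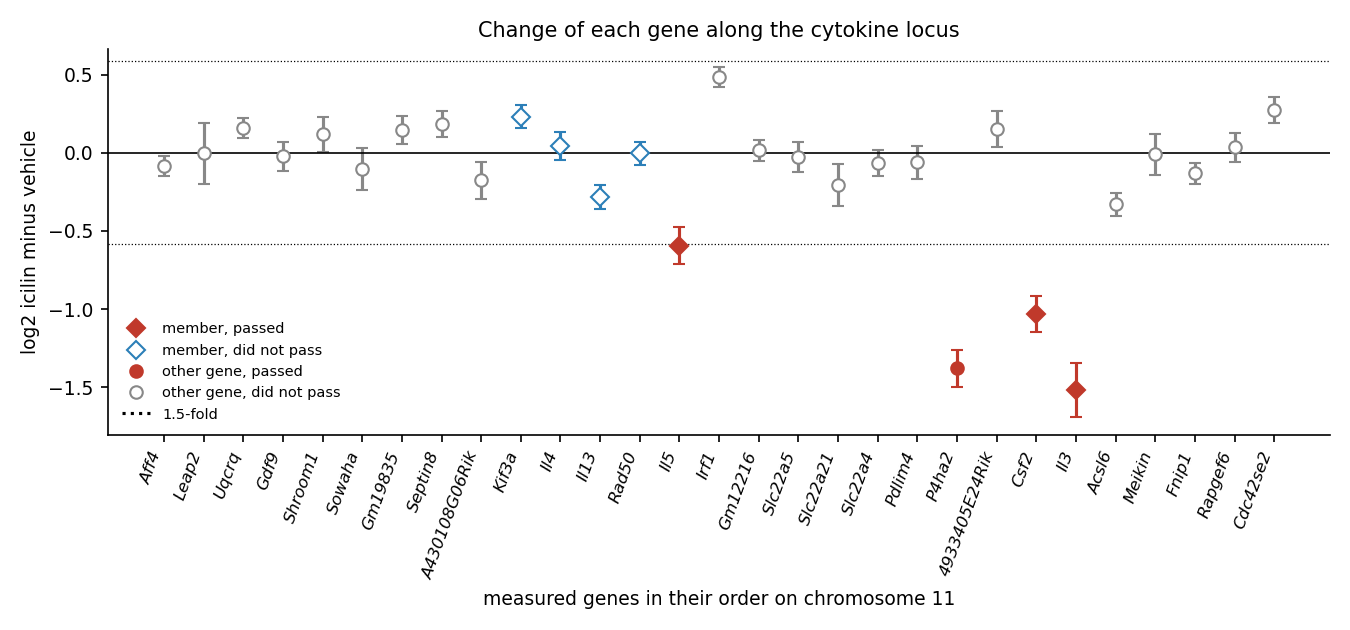
Log2 difference, icilin minus vehicle, with its SE (vertical axis) for the 29 measured genes from Aff4 to Cdc42se2 in their order on chromosome 11 (horizontal axis, not to distance); diamonds are the 7 members, filled red symbols passed and dotted lines mark 1.5-fold. Il5, P4ha2, Csf2 and Il3 lie below the lower dotted line, with Il5 at -0.59 next to it.

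Of 8 measured receptor genes of these cytokines, 1 fell and 7 did not pass, where 1.03% of all genes passed as lower. Il13ra1, a subunit of the interleukin 13 receptor, averaged 2.78 with icilin and 3.38 with vehicle (-0.60 ± 0.12, limma adjusted p = 0.0453). Both means lay under the 90th percentile of the olfactory receptor genes (3.62 with icilin and 3.65 with vehicle), so a level above background was not shown in either group. The call ended when icilin replicate 1 or 3 or vehicle replicate 1 or 3 was left out (adjusted p 0.111 to 0.145), and under 1 further alternative, the replicate block. The shared interleukin 4 and 13 receptor gene Il4ra stood at 0.02, and Csf2rb, the common receptor subunit for interleukin 3, interleukin 5 and GM-CSF, at 0.37 (adjusted p = 0.426). Il5ra, the interleukin 5 receptor subunit, had -0.36 (adjusted p = 0.162) and Il3ra, that of interleukin 3, 0.22 (adjusted p = 0.277), each with groups that did not overlap. In this list the groups did not overlap for 2 lower and 2 higher genes. Over all genes this was so for 10.5% as lower and 13.6% as higher. The 8 differences ran in both directions, 4 below and 4 above 0.

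Of 23 measured transcription factors that act on the cluster, 2 fell, the AP-1 subunit genes Fosl2 (8.40 with icilin and 9.42 with vehicle; -1.01 ± 0.07, limma adjusted p = 0.00109) and Junb (9.45 with icilin and 10.1 with vehicle; -0.63 ± 0.07, limma adjusted p = 0.00604), and 21 did not pass. A further 3 had an adjusted p under 0.1 but were short of 1.5-fold: Batf (-0.49, adjusted p = 0.00737), Stat5a (-0.50, adjusted p = 0.0218) and Stat5b (-0.35, adjusted p = 0.0306), named after their values were seen. The AP-1 genes Jun (-0.17) and Fos (0.12) did not pass. Gata3 averaged 9.09 with icilin and 9.11 with vehicle (-0.02 ± 0.07). Maf (-0.14), Stat6 (-0.20), Nfatc1 (-0.03) and Nfatc2 (-0.24) did not pass. The list median was -0.05. Of all genes, 1.03% passed as lower. Without the fold limit, 3% were lower with a limma adjusted p under 0.1.

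Other genes of T cell effector programmes were measured for comparison. Among all genes, 1.03% passed as lower and 0.37% as higher. Of 10 factors that oppose the T helper 2 programme or act in other lineages, Runx3, a repressor of Il4, fell (-0.81) and Eomes rose (0.67), with a median of 0.08. Tbx21, the main T helper 1 factor gene, had 0.47 (adjusted p = 0.0191, short of 1.5-fold) and Foxp3, the regulatory T cell factor gene, 0.29 (adjusted p = 0.126). Of 19 other genes of T cell cytokines, chemokines and their receptors 1 fell, the cytokine gene Il24 (-1.61). In this list 17 genes had a log2 difference below 0, against 47.0% of all genes, and the median was -0.16. Il2 stood at -0.19 (adjusted p = 0.525) and Ifng at -0.33 (adjusted p = 0.179). Of 14 genes of calcineurin and of the feedback of activation, Tnfrsf9 (-1.02) and Nr4a2 (-0.87) fell, and the median was -0.06.

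**Figure D5:**
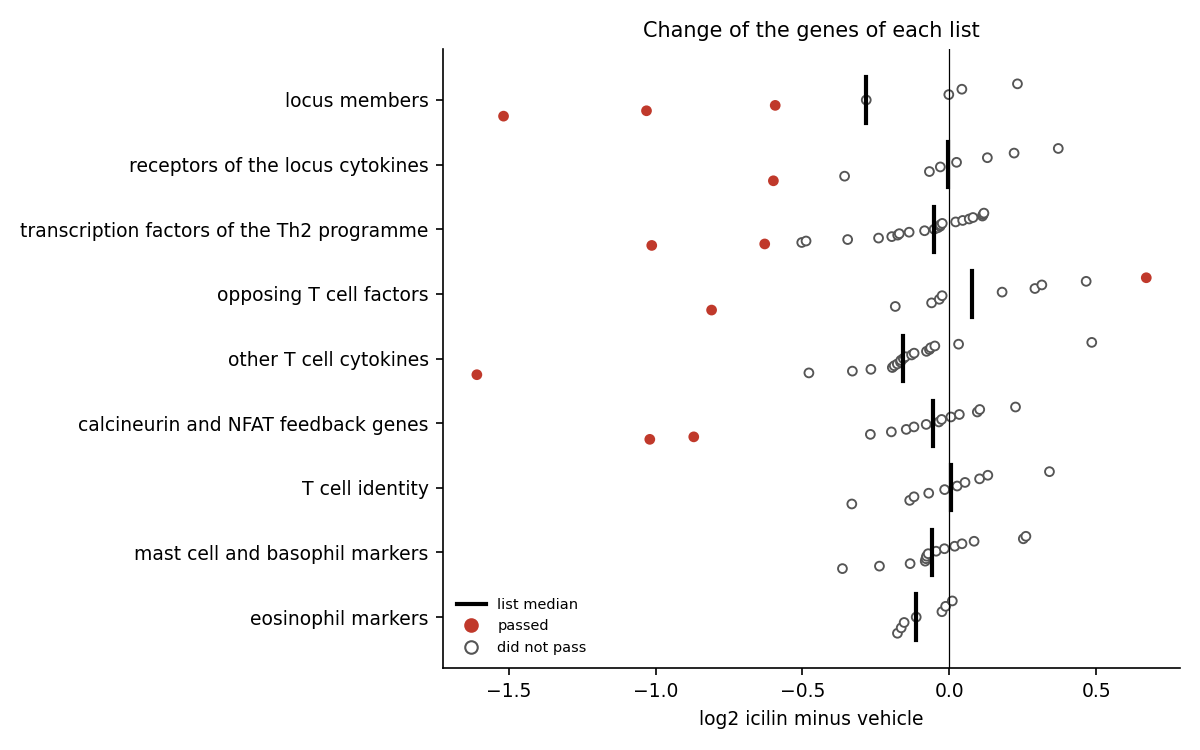
Log2 difference, icilin minus vehicle (horizontal axis), of each measured gene of 9 lists (rows); filled red points passed, open points did not, and black bars are list medians. The members' median of -0.28 is the lowest of the 9, and the medians of the other lists lie between -0.16 and 0.08. That median is the value of Il13, which did not pass. Members and lists were chosen with earlier results of these data known, so the order of the medians is a description only.

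The profiles nearest to those of the 3 lowered cytokine genes were found by the root mean square difference between 2 genes' deviations from their own means over the 6 arrays, among 17259 genes. For Il3 they were Il24 (0.14 log2 units), P4ha2 (0.14), which lies on the other side of Csf2, and the sialyltransferase gene St6gal1 (0.17). For Csf2 they were the caspase gene Casp6 (0.07), the retinoic acid binding protein gene Crabp2 (0.08) and the receptor gene Gpr55 (0.08). For Il5 they were the glutathione transferase gene Gstt1 (0.07), the activation marker gene Cd83 (0.07) and Il13ra1 (0.09). The measure includes the difference between the groups, so genes with a similar log2 difference lie near by construction. It is a description and adds no support to the calls.

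The cells carried the markers of T cells. Of 10 measured T cell identity genes, all lay at or above percentile 92.1 of brightness. Cd4 had a log2 difference of 0.03 and Cd3e one of -0.07. Limma and SAM called 0 of the 10, where limma passed 1.4% of all genes. The signalling kinase gene Zap70 (-0.33, adjusted p = 0.0403) and the costimulatory receptor gene Cd28 (0.34, adjusted p = 0.0529) had an adjusted p under 0.1 by limma but were short of 1.5-fold. They were also the 2 genes of the list with an unadjusted p under 0.05. Basophils and mast cells also make interleukins 3, 4 and 13. Of 14 of their markers, limma and SAM called 0, while at an unadjusted p below 0.05 there were 2 lower and 1 higher. The log2 of their summed levels was 7.24 to 7.41 on icilin arrays and 7.30 to 7.33 on vehicle arrays, and 1 of the 14, Cpa3 (0.26, adjusted p = 0.236), was brighter than the median gene. Gata2 stood at -0.24 and Mcpt8 at -0.13. Eosinophil markers (7 genes) likewise had 0 calls by both tests and 0 at an unadjusted p under 0.05 (Siglecf stood at -0.11), with summed levels of 6.10 to 6.17 with icilin and 6.09 to 6.35 with vehicle. For markers of NKT cells and ILC2 (7 genes) the tests called 0, with Rora alone (-0.30) under an unadjusted p of 0.05 and sums of 7.24 to 7.30 with icilin and 7.20 to 7.45 with vehicle. For CD8 T and natural killer cells (6 genes) they called 0 (2 lower, Klrc1 at -0.46 with the smallest p, and 1 higher before adjustment, p under 0.05), with sums of 7.34 to 7.65 with icilin and 7.27 to 7.45 with vehicle. For 11 myeloid markers they called 0. Before adjustment, p under 0.05, 2 were lower, Cd68 (-0.26) and Csf1r (-0.26), and 1, Itgam (0.21), was higher. Cd68, at percentile 65.8 of brightness, was the 1 of the 11 brighter than the median gene. Cd68 and Csf1r were named after their values were seen. The myeloid sums of 7.35 to 7.43 with icilin lay below those of 7.49 to 7.57 with vehicle. Of 7 B cell markers Ms4a1 rose (1.01), and SAM also called Ebf1, which was lower (-0.73, limma adjusted p = 0.128). Before adjustment, p under 0.05, 1 of the 7 was lower and 2 were higher. The B cell sums of 7.64 to 7.68 with icilin lay above those of 7.51 to 7.56 with vehicle. The part of these cells in the cytokine differences was not tested.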

How the data were processed

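The deposited table holds log2 values for 41345 probe sets on 6 arrays that the authors made by Robust Multi-Array Average, which normalized and log2 transformed them, per the labels and the series design text. It was used as deposited, and array medians lay between 4.24 and 4.30. RMA makes the arrays' distributions alike, so a shift common to most genes would not show. RNA input was 0.25 µg with an integrity number of at least 8. Of the probe sets, 23521 carried 1 symbol, 1814 several and 16010 none. The brightest probe set was kept for genes with more than 1, giving 22180 genes.

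Differences, icilin minus vehicle, were tested with limma 3.58.1 (R 4.3.3; eBayes, no trend, not robust), two-sided. The 3 arrays per group limit precision, and the median SE was 0.09. In simulated data with 200 changed genes, limma called 98% of those changed by 1 log2 unit. Only changes of 1 and 1.5 log2 units were simulated, so recovery near the 1.5-fold limit is not known. Promoters came from RefSeq (GRCm38.p6), which had entries for 6 of the 7 members. The build of the array annotation is not given in the sources used here. The members, lists and tests were chosen with earlier results of these data known, and Sowaha, Rapgef6 and the unlisted RNA genes of the stretch were added afterwards. Named genes were all members, all measured genes of the stretch, up to 4 genes that passed from each list (otherwise the one with the smallest p), a fixed set of 14 regulators and markers, and 3 nearest profiles per lowered cytokine gene. The alternatives were a replicate block, an intensity trend with robust variances, median centring, quantile normalization, leaving out dim genes, averaging probe sets, a fit over every probe set, other limits, SAM (20 divisions) and leaving out each array. Figures were drawn in Python 3.11.15.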

Additional observations from a re-analysis of the deposited data

How the results depend on the processing

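Il3 passed in all 15 alternatives that gave it a value (-1.68 to -1.35). With genes dimmer than the median left out it was not in the fit. The setting with an adjusted p under 0.1 and no fold limit could not end the call of any gene. Averaging probe sets and the fit over every probe set left Il3 at -1.52, as it has 1 probe set. Csf2 passed in 15 of 16 (single arrays left out, -1.15 to -0.93), and fell short with both probe sets averaged (-0.48). Il5 lost its call with the replicate block (-0.59), with arrays centred (-0.58) or quantile normalized (-0.58), at an adjusted p under 0.05 (-0.59), and in 5 of the 6 fits without 1 array (-0.72 to -0.49 over the 6). The block changed no other member's call. Il13 (-0.34 to -0.24) and Kif3a (0.19 to 0.27) kept their direction and stayed short of 1.5-fold in all 16, but their limma adjusted p came under 0.1 with an intensity trend and robust variances (0.0135 and 0.0507) and with dim genes left out (0.0304 and 0.0441). Without single arrays Il4 ran from -0.020 to 0.11 and Rad50 from -0.046 to 0.032 (0.0088 centred). The cause of these shifts was not tested.

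In place of 311 genes (229 lower, 82 higher), 1170 (666 and 504) passed an adjusted p of 0.1 with no fold limit and 734 (466 and 268) one of 0.05; SAM gave 333. Of 879 values for 56 other genes, 844 kept direction and call, 5 lost it, 10 gained it and 20 turned sign. Those that turned were Meikin (0.0026 centred), Leap2 (0.0081 centred), Shroom1 (-0.059) and Sowaha (0.15) with probe sets averaged, and, without single arrays, Meikin (-0.13 to 0.091), Leap2 (-0.24 to 0.13), Slc22a5 (-0.088 to 0.070), Gdf9 (-0.080 to 0.067), Sowaha (-0.24 to 0.0039), Rapgef6 (-0.017 to 0.13), Gm12216 (-0.018 to 0.051) and Gata3 (-0.051 to 0.011).

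Both groups came from the same 3 mice, but the labels do not say that the replicate number names a mouse. Deviations of same-numbered arrays from their group means correlated at -0.022 to -0.0051 across genes, against -0.022 to 0.036 for other pairs, so the number was not used for pairing. With it as a replicate block 283 genes passed (210 lower and 73 higher), and Il5 had an adjusted p of 0.117 by limma.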

Other observations

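The 2 probe sets of Csf2 lie in different runs of probe set numbers, which was looked at only after their values were seen. Among the 20 numbered probe sets around the dimmer one (10 on each side, genes with a known strand), 19 belong to genes on the plus strand. Around the brighter one 19 of 20 belong to genes on the minus strand, the strand of Csf2 in RefSeq. Over the array, 16297 probe sets lie in runs where at least 90% of the neighbours share a strand, and 96.6% of them carry a gene of that strand. The 2 probe sets of Acsl6 showed the same arrangement: the brighter one (-0.33) lies in a run with 18 of 20 neighbours on the plus strand, which is that of Acsl6, and the dimmer one (0.04) in a run with 20 of 20 on the minus strand. Of 481 genes with probe sets in both kinds of run, the one in the run of the gene's own strand was the brighter in 77.5%. Shroom1 and Sowaha, in the same stretch, also have 2 probe sets each, but no strand for these genes was at hand. Their dimmer probe sets stood at -0.24 and 0.41, and their brighter ones at 0.12 and -0.10. For the dimmer one of Sowaha the groups did not overlap. Whether the dimmer probe sets read the opposite strand was not tested, as probe sequences were not used here.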
